A study of Homo sapiens with 6 samples.

Results

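The genes SMC2, SMC4, NCAPD2, NCAPG, NCAPH, NCAPD3 and NCAPG2, which encode condensin subunits, and TOP2A and MKI67, which encode topoisomerase II alpha and the Ki-67 protein, were followed in CAL27 cells. CAL27, an established human line, derives from a tongue squamous carcinoma. The genes were found by their symbols in the table of raw counts, which lists 60564 genes. All 9 were found, and all 9 were among the 18786 genes that passed the filter on low counts. RNA sequencing had been done on 3 libraries of cells infected with a lentivirus that carries CNTNAP2-203, a transcript of the gene CNTNAP2 (called CNTNAP2-203 OE, for overexpression), and on 3 libraries of cells infected with a control vector, whose labels name EGFP and give the genotype as WT. Both groups derive from the same cell line, were put under 5 μg/ml puromycin for 2 weeks, and are described as stable lines. Whether libraries of a group came from separate infections or cultures is not in the labels. The p-values therefore measure the spread between these 6 libraries alone, and that spread may be technical.

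Condensins are ring-shaped ATPases that extrude loops of DNA and compact chromosomes for mitosis. SMC2 and SMC4 form the ATPase core of both condensin complexes. Condensin I adds NCAPD2, NCAPG and NCAPH and reaches the chromosomes once the nuclear envelope has broken down, while condensin II adds NCAPD3, NCAPG2 and NCAPH2 and is nuclear throughout the cell cycle. Topoisomerase II alpha passes one DNA duplex through another and so untangles sister chromatids, and with condensin it is a major component of the mitotic chromosome axis. Ki-67 coats the surface of mitotic chromosomes and keeps them apart from each other. It is present in cycling cells and absent from resting ones, which is why its staining is used to grade proliferation in tumours, oral carcinomas among them.

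The promoters of these genes are shown first because many genes of the G2 and M phases share short promoter elements. Such elements are the CHR (cell cycle genes homology region), which binds DREAM and related MuvB complexes, the E2F site, and the CCAAT box, which binds NF-Y. The 250 bases before each gene start were taken from RefSeq (GRCh38.p14), where the 9 genes had 12 promoters, and were searched on both strands for CHR (TTTGAA or TTCGAA), for an E2F core (the letters TTTCGCG, the letters TTTGGCG or the letters TTCCCGC) and for CCAAT. CHR letters were found in a promoter of 5 of the 9 genes, SMC4, NCAPD2, NCAPG, TOP2A and MKI67. Counted by promoter these were 5 of the 12, against 14.3% of all 35116 promoters in the table. CCAAT was found for 5 genes, NCAPD2, NCAPD3, NCAPH, TOP2A and MKI67, in 5 of the 12 promoters, against 32.0% of all promoters. An E2F core was found for 2 genes, NCAPG and NCAPD3, in 2 of the 12 promoters, against 7.89% of all promoters. These matches describe the letters in the window and are not evidence of binding.

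The CHR nearest to the gene start is shown for each of the 5 genes that hold one, with 30 bases written 5′ to 3′ on the strand of the gene. Capitals mark the CHR (TTTGAA, or TTCAAA where it lies on the other strand) and any E2F core or CCAAT letters beside it (ATTGG where CCAAT lies on the other strand). The stretches lie at chr4:17810932-17810961 on the plus strand for NCAPG, chr10:128126435-128126464 on the minus strand for MKI67, chr17:40418030-40418059 on the minus strand for TOP2A, chr3:160399563-160399592 on the plus strand for SMC4 and chr12:6493945-6493974 on the plus strand for NCAPD2. The stretches of NCAPG, SMC4 and NCAPD2 fall in exons of the GENCODE 29 gene models, whose gene starts lie farther upstream, and those of MKI67 and TOP2A lie outside the annotated genes.
NCAPG: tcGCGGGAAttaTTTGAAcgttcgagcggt
MKI67: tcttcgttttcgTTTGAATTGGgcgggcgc
TOP2A: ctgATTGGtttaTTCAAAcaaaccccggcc
SMC4: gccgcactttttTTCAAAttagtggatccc
NCAPD2: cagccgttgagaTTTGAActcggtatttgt

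In NCAPG the CHR lies 35 to 30 bases before the gene start, and an E2F core on the other strand lies 45 to 39 bases before it. In MKI67 the CHR at 29 to 24 bases before the start shares its last base with a CCAAT box read on the other strand, and a further CHR lies at 47 to 42 bases. In TOP2A the CHR at 151 to 146 bases is the nearer of 2, and a CCAAT box on the other strand precedes it.

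The whole window is shown for MKI67 (chr10:128126424-128126673, minus strand), which holds CHR and CCAAT letters, and for NCAPH (chr2:96335516-96335765, plus strand), a gene called higher below with none of the CHR letters in its window. Capitals again mark the elements, and neither window overlaps an annotated exon of its gene.
MKI67: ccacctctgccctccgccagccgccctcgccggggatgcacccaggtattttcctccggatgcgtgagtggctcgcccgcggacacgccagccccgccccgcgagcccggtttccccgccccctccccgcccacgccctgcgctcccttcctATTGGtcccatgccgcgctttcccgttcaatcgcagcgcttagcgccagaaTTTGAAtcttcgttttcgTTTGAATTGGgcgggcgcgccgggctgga
NCAPH: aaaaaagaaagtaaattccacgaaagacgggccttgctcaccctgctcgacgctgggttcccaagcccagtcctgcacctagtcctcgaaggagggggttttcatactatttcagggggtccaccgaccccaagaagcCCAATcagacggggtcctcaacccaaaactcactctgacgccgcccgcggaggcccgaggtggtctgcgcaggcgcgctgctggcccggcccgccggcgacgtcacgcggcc

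The deposited counts summed to between 36843190 and 42412703 per library. The lowest total belonged to CNTNAP2-203 OE replicate 3, which also had the fewest genes with a count (25336, against up to 27002) and the largest mean distance from the libraries of its own group (0.730 on the log2 CPM scale, against 0.574 to 0.652 for the other libraries). It stands apart from CNTNAP2-203 OE replicates 1 and 2, and the fold changes, ratios and profiles are therefore given with and without it. The introduced gene CNTNAP2 had 140022, 156055 and 119280 counts in CNTNAP2-203 OE libraries and 0, 3 and 4 in controls, which matches the labels. The 6 squamous epithelial markers KRT5, KRT14, KRT6A, KRT17, TP63 and CDH1 were all measured, with summed levels of 12716 to 14746 CPM (counts scaled to 1000000 per library, here by the total count and for single genes with TMM factors) in CNTNAP2-203 OE libraries and 12707 to 14666 CPM in controls. Markers of other cell types summed to far less. The 4 fibroblast markers gave 26.9 to 32.8 CPM in CNTNAP2-203 OE and 30.5 to 36.6 CPM in controls, and the 3 endothelial markers 7.36 to 11.6 and 6.09 to 9.68 CPM. Of these markers COL3A1 and PECAM1 did not pass the filter on low counts and were not tested, and none of the others passed the test. Every marker had a count in at least 1 library.

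The condensin genes SMC4, NCAPG, NCAPH and NCAPD3 rose in CNTNAP2-203 OE cells, by 1.57- to 1.74-fold. These 4 of 9 genes were called higher by edgeR's quasi-likelihood test with Benjamini-Hochberg adjustment over all 18786 genes at 0.05, and 0 were called lower, as also by DESeq2, limma-voom and limma-trend. Over all tested genes, 150 (0.798%) were called higher and 112 (0.596%) lower. All 9 log2 fold changes were positive, 7 with an unadjusted p under 0.05, as had 17.2% of all tested genes in either direction, and their median was 0.46, against -0.00 over all tested genes. In 6 of the 9 genes, SMC4, NCAPD2, NCAPD3, NCAPG, NCAPG2 and NCAPH, every CNTNAP2-203 OE library lay above every control, which held for 2578 (13.7%) of all tested genes. Without CNTNAP2-203 OE replicate 3, 8 of the 9 were called higher, all but SMC2, with a median of 0.63, where 323 (1.72%) of all genes were called higher and 237 (1.26%) lower. In bulk samples such as these, more cells with a transcript and more of it per cell cannot be told apart.

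**Figure D1:**
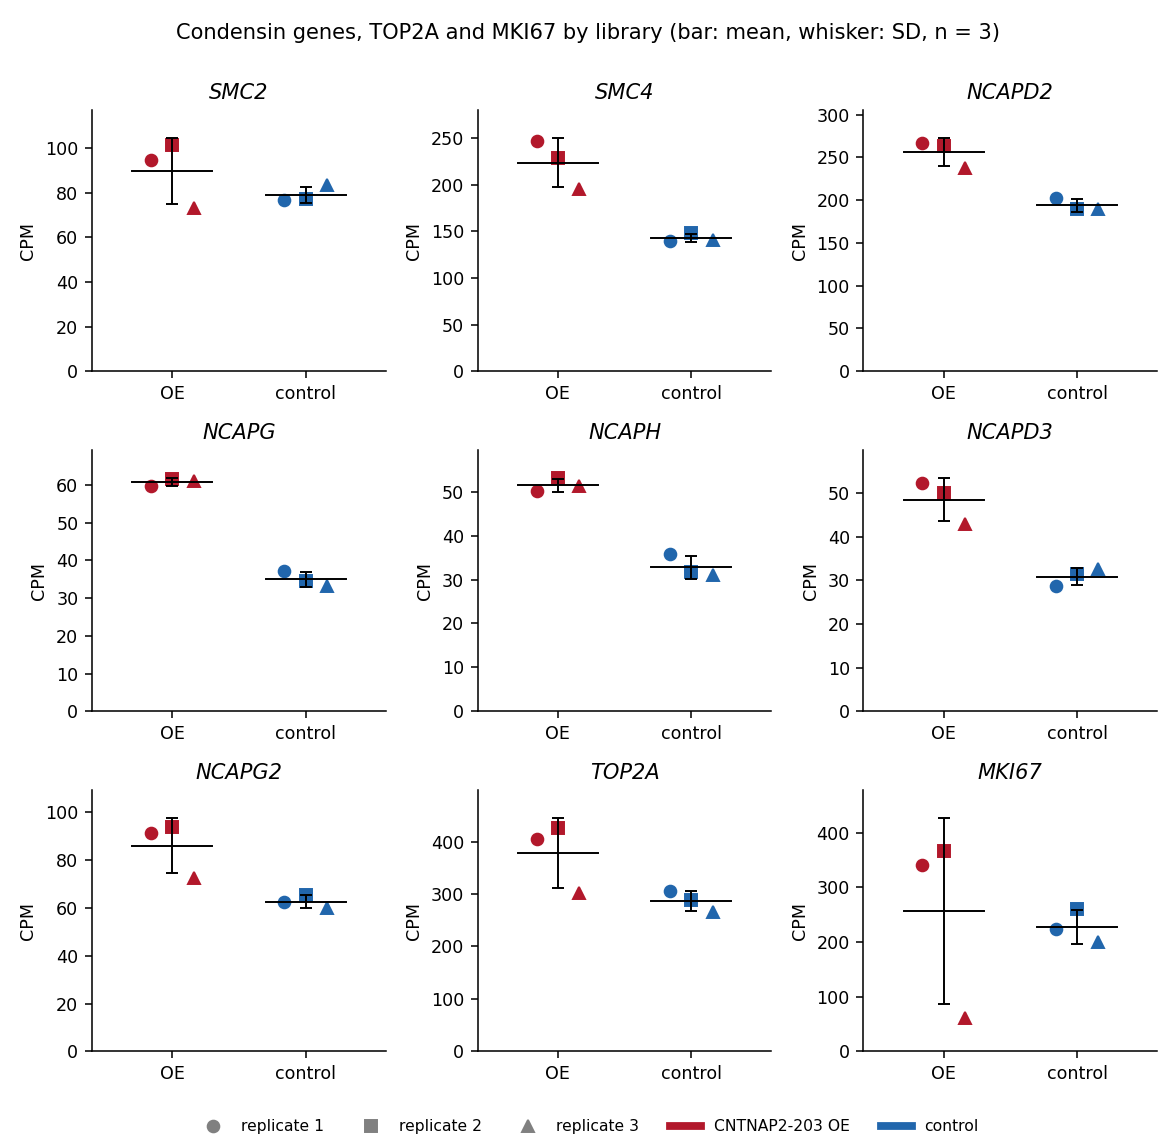
Level of each of the 9 genes in CPM (linear axis from 0) in the 3 CNTNAP2-203 OE libraries (left, red) and the 3 control libraries (right, blue); symbols give the replicate number, the line the mean and the whisker the SD. CNTNAP2-203 OE and control libraries are separate for 6 genes, and MKI67 shows 1 CNTNAP2-203 OE library at 61.9 CPM, below all controls.

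Of the genes of the shared ATPase core, SMC4 rose and SMC2 did not pass the test. SMC4 (chr3:160399274-160434962, plus strand, GRCh38) had 247, 229 and 196 CPM in CNTNAP2-203 OE replicates 1, 2 and 3, against 139, 148 and 141 CPM in control replicates 1, 2 and 3. Every CNTNAP2-203 OE library lay above every control, and the log2 fold change was 0.65 ± 0.110 (SE, n = 3 libraries each), a 1.57-fold rise (edgeR adjusted p = 0.0411). Without CNTNAP2-203 OE replicate 3 it was 0.74 (edgeR adjusted p = 0.00734). SMC2 (chr9:104094260-104141417, plus strand) had 94.6, 101 and 73.0 CPM in CNTNAP2-203 OE libraries and 76.8, 77.0 and 83.3 CPM in controls. The groups overlapped, because CNTNAP2-203 OE replicate 3 lay below all 3 controls while replicates 1 and 2 lay above them. Its log2 fold change of 0.18 ± 0.133 did not pass the test (edgeR adjusted p = 0.520), nor did that of 0.31 without replicate 3 (edgeR adjusted p = 0.102). SMC2 was called in none of the 15 alternative fits.

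Exons of SMC4 overlap those of IFT80 and TRIM59 on the minus strand, and the kit keeps no strand information, so reads of the overlapping parts cannot be told apart. IFT80 and TRIM59 were chosen for that position, and their counts were 24.3% and 28.6% of those of SMC4. Neither passed the test (log2 fold change -0.10, edgeR adjusted p = 0.633 for IFT80, and 0.20, adjusted p = 0.555 for TRIM59). SMC4, NCAPD2, NCAPG and MKI67 also have pseudogene copies in the annotation, with the counting of reads that fit both not given in the sources used here.

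Of the condensin I subunits, NCAPG and NCAPH rose, and NCAPD2 did not pass the edgeR test unless replicate 3 was left out or the length trend, described further on, was removed. NCAPG (chr4:17810902-17844862, plus strand), a HEAT-repeat subunit, had 59.7, 61.6 and 60.9 CPM in CNTNAP2-203 OE libraries and 37.1, 34.5 and 33.1 CPM in controls. The CNTNAP2-203 OE libraries lay close together and well clear of the controls, and CNTNAP2-203 OE replicate 3 was not lower than the others here. The log2 fold change of 0.80 ± 0.0938 (SE, n = 3 each), or 1.74-fold, was the largest of the 9 genes (edgeR adjusted p = 0.0160) and stayed at 0.80 without replicate 3 (edgeR adjusted p = 0.00922). NCAPH (chr2:96335787-96373845, plus strand), the kleisin that closes the condensin I ring, had 50.2, 53.1 and 51.3 CPM in CNTNAP2-203 OE libraries and 35.8, 31.6 and 31.1 CPM in controls. Its groups were also apart, by a smaller gap than those of NCAPG, with a log2 fold change of 0.65 ± 0.10 with replicate 3 (edgeR adjusted p = 0.0333) and 0.65 without it (edgeR adjusted p = 0.0221). NCAPD2 (chr12:6493356-6531955, plus strand), the other HEAT-repeat subunit, had 267, 264 and 238 CPM in CNTNAP2-203 OE libraries and 203, 189.8 and 189 CPM in controls. Its libraries did not overlap either, but the log2 fold change of 0.40 ± 0.0938 missed the threshold (edgeR adjusted p = 0.0891). Without replicate 3 it was 0.45 and passed (edgeR adjusted p = 0.0236). Exons of NCAPD2 overlap MRPL51 on the minus strand, whose counts were 44.5% of those of NCAPD2 and whose log2 fold change was 0.55 (edgeR adjusted p = 0.130), and exons of NCAPG overlap LCORL, with 13.2% of the counts of NCAPG and a log2 fold change of 0.17 (edgeR adjusted p = 0.746). Both partners are named for their position.

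Of the condensin II subunits, NCAPD3 rose, and NCAPG2, like NCAPD2, did not pass the edgeR test with all libraries unless the length trend was removed. NCAPD3 (chr11:134150119-134225454, minus strand), a HEAT-repeat subunit, had 52.4, 50.1 and 43.0 CPM in CNTNAP2-203 OE libraries and 28.7, 31.4 and 32.6 CPM in controls. All CNTNAP2-203 OE libraries lay above all controls, with replicate 3 the lowest of them, and the log2 fold change was 0.65 ± 0.115, or 1.57-fold (edgeR adjusted p = 0.0445), and 0.73 without replicate 3 (edgeR adjusted p = 0.0152). Exons of NCAPD3 overlap JAM3 and VPS26B on the plus strand, both named for that position. JAM3 passed the test (log2 fold change 1.63, edgeR adjusted p = 0.0497) but had 2.94% of the counts of NCAPD3, while VPS26B had 52.9% of them and a log2 fold change of -0.16 (edgeR adjusted p = 0.624). NCAPG2 (chr7:158631311-158704829, minus strand), the other HEAT-repeat subunit, had 91.4, 93.6 and 72.7 CPM in CNTNAP2-203 OE libraries and 62.6, 65.5 and 59.9 CPM in controls. The groups did not overlap, but replicate 3 lay nearer to the controls than to the other CNTNAP2-203 OE libraries. The log2 fold change was 0.46 ± 0.120 (edgeR adjusted p = 0.119), and 0.56 without replicate 3 (edgeR adjusted p = 0.0197).

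NCAPH2 (chr22:50508216-50523472, plus strand), the kleisin of condensin II, is not among the 9 genes and completes the complex. It had 68.2, 62.7 and 88.9 CPM in CNTNAP2-203 OE libraries and 56.0, 53.3 and 54.7 CPM in controls. Here CNTNAP2-203 OE replicate 3 was the highest library, the reverse of its place for NCAPG2 and NCAPD3. The log2 fold change of 0.42 ± 0.139 did not pass the test (edgeR adjusted p = 0.182), and without replicate 3 it was 0.26 (edgeR adjusted p = 0.150).

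TOP2A (chr17:40388516-40417950, minus strand) had 405, 426 and 302 CPM in CNTNAP2-203 OE libraries and 305, 289 and 266 CPM in controls. CNTNAP2-203 OE replicates 1 and 2 lay above all controls, and replicate 3 lay within their range. The log2 fold change of 0.40 ± 0.142 (SE, n = 3 each) did not pass the test (edgeR adjusted p = 0.212). Without replicate 3 it was 0.53, or 1.45-fold, and passed (edgeR adjusted p = 0.0228). TOP2B, the paralogue that resting cells also use, had 80.3, 76.1 and 72.7 CPM in CNTNAP2-203 OE libraries and 77.2, 80.7 and 78.4 CPM in controls. Its groups overlapped and its log2 fold change was -0.04 ± 0.0899 (edgeR adjusted p = 0.836), and -0.01 without replicate 3 (edgeR adjusted p = 0.956).

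MKI67 (chr10:128096659-128126385, minus strand) had 341, 368 and 61.9 CPM in CNTNAP2-203 OE replicates 1, 2 and 3 and 225, 261 and 199 CPM in controls, from 14456, 15184 and 2167 counts in CNTNAP2-203 OE and 8917, 10315 and 8422 in controls. Replicates 1 and 2 lay above every control and replicate 3 below every control. With all libraries the log2 fold change was 0.17 ± 0.648 (SE, n = 3 each), which did not pass the test (edgeR adjusted p = 0.918), and its SE was the largest of the 9 genes. Leaving out that replicate 3 gave a log2 fold change of 0.63 ± 0.116, or 1.55-fold, which passed (edgeR adjusted p = 0.0432). The level in replicate 3 was 5.72-fold below that of CNTNAP2-203 OE replicates 1 and 2 (log2 difference -2.52), the 7th lowest such difference among the 6078 genes whose average log2 CPM was 5 or more. In that library MKI67 and the condensin genes NCAPG and NCAPH therefore stood far apart with NCAPG and NCAPH at the level of the other CNTNAP2-203 OE libraries.

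**Figure D2:**
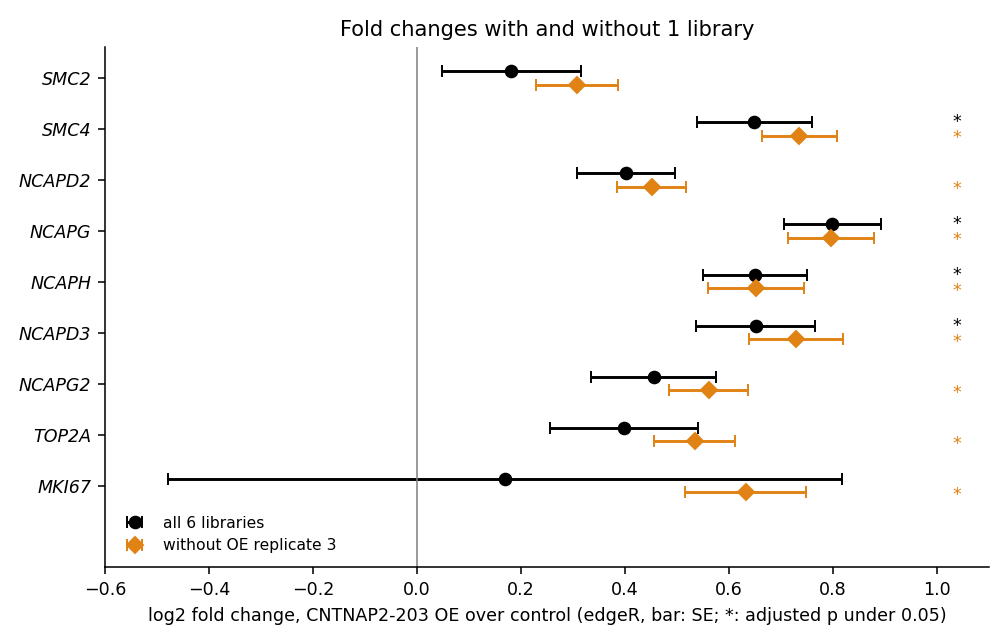
Log2 fold change of the 9 genes, CNTNAP2-203 OE over control (horizontal axis), with SE bars, from all 6 libraries (black circles) and without CNTNAP2-203 OE replicate 3 (orange diamonds); asterisks mark edgeR adjusted p under 0.05. NCAPG and NCAPH keep 0.80 and 0.65 in both fits, and MKI67 moves to 0.63 without that library, against 0.17 with it.

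The calls also depended on single libraries. NCAPG was the only one of the 9 still called when CNTNAP2-203 OE replicate 2 was left out (edgeR adjusted p = 0.0482), and 0 of 9 were called when CNTNAP2-203 OE replicate 1 or any 1 control was left out. In those 4 fits 6 or 7 of the 9 had an unadjusted p under 0.05 by edgeR. Over all 18786 tested genes, 2870 had one in either direction without CNTNAP2-203 OE replicate 1. Without control replicates 1, 2 and 3 in turn, 2616, 2248 and 2128 had one. Of all genes, 0.256% were called higher without CNTNAP2-203 OE replicate 2, 0.0852% without CNTNAP2-203 OE replicate 1, 0.0639% without control replicate 1 or control replicate 3, and 0.0426% without control replicate 2. Over the 6 fits that each leave out 1 library, the log2 fold change of NCAPG ran from 0.76 to 0.85. It ran from 0.61 to 0.72 for NCAPH, 0.57 to 0.74 for SMC4 and 0.59 to 0.73 for NCAPD3. For the other genes it ran from 0.08 to 0.31 for SMC2, 0.37 to 0.45 for NCAPD2 and 0.39 to 0.56 for NCAPG2. TOP2A ran from 0.30 to 0.53, and MKI67 from -0.18 to 0.63. With all libraries, DESeq2 called 6 of the 9 higher, where it called 4.40% of the genes with an adjusted p. Limma-voom called 2, where it called 0.516% of all genes higher, and limma-trend on the deposited log2 FPKM values called 1, where it called 0.527%.

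CNTNAP2-203 OE replicate 3 differed from the other CNTNAP2-203 OE libraries by gene length. Among genes whose average log2 CPM was 5 or more, the median of its log2 level minus the mean of CNTNAP2-203 OE replicates 1 and 2 was 0.42 for 443 genes with under 2 kb of exons and -0.31 for 865 genes with over 10 kb. In the other comparisons between libraries of a group, these medians lay between -0.10 and 0.09. The exon lengths of the 9 genes run from 3.278 kb for NCAPH to 12.807 kb for MKI67. Replicate 3 differed by 0.01 for NCAPG (4.921 kb) and by -0.01 for NCAPH, the shortest of the 9 genes. It differed by -0.16 for NCAPD2 (6.487 kb), -0.35 for NCAPG2 (6.988 kb), -0.42 for SMC2 (6.468 kb) and -0.46 for TOP2A (6.437 kb), where genes of 6 to 8 kb had a median of -0.11 and a lower quartile of -0.29. SMC4 (8.457 kb) differed by -0.28 and NCAPD3 (9.114 kb) by -0.25, where genes of 8 to 10 kb had a median of -0.18. The -2.52 of MKI67 lay far below the lower quartile of -0.53 of genes over 10 kb. NCAPH2, with 3.159 kb of exons, differed by 0.44, where genes of 2 to 4 kb had a median of 0.22. In a fit with the trend by length removed from each library, 6 of the 9 were called higher, where 1.55% of all genes were, with NCAPD2 (adjusted p = 0.0366, edgeR) and NCAPG2 (adjusted p = 0.0441, edgeR) added, and MKI67 remained at 0.23 (adjusted p = 0.879, edgeR). That fit used gene lengths implied by the counts and the deposited FPKM values, not the exon lengths given here. By the implied lengths NCAPH is longer than NCAPG, the reverse of their exon lengths. The part of length in the differences between groups was not tested beyond that fit.

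**Figure D3:**
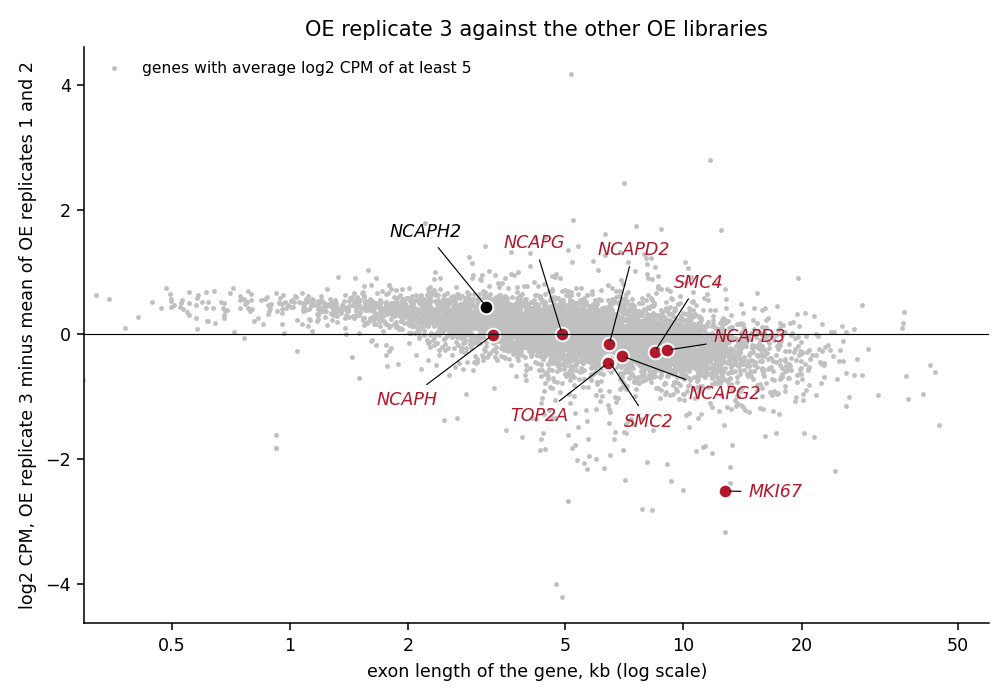
Log2 CPM of CNTNAP2-203 OE replicate 3 minus the mean of CNTNAP2-203 OE replicates 1 and 2 (vertical axis) against exon length in kb (log axis) for genes whose average log2 CPM was 5 or more (grey), the 9 genes (red) and NCAPH2 (black). The grey points slope down with length, 8 of the 9 genes lie within the cloud, and MKI67 lies at -2.52.

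Levels between genes were compared per length, from the deposited log2(FPKM + 1) values turned back into FPKM (fragments per kilobase, scaled by library size). TOP2A had the highest level in both groups, 48.0 ± 9.90 FPKM in CNTNAP2-203 OE and 37.4 ± 2.64 FPKM in controls (SD, n = 3 each). NCAPD2 came next at 32.0 ± 3.05 and 24.9 ± 0.971 FPKM, and no library of NCAPD2 reached that of TOP2A in either group. NCAPD3 was the lowest at 4.30 ± 0.564 and 2.80 ± 0.185 FPKM, below all libraries of NCAPH, which had 6.34 ± 0.320 and 4.16 ± 0.329 FPKM. Between these ends, CNTNAP2-203 OE had SMC4 at 22.1 ± 3.20, MKI67 at 16.3 ± 10.9, SMC2 at 11.2 ± 2.19, NCAPG at 10.1 ± 0.384 and NCAPG2 at 9.79 ± 1.61 FPKM. Neighbours from SMC4 to NCAPG2 in that order overlapped in their libraries and were not separable, and without replicate 3 NCAPG2 averaged 10.7 FPKM and NCAPG 10.3 FPKM, the other way round. Without that library TOP2A averaged 53.7, NCAPD2 33.8, SMC4 23.9, MKI67 22.6, SMC2 12.4, NCAPH 6.48 and NCAPD3 4.62 FPKM in CNTNAP2-203 OE. In controls, MKI67 had 14.7 ± 2.08 and SMC4 14.5 ± 0.532 FPKM, which overlapped, followed by SMC2 at 10.1 ± 0.448, NCAPG2 at 7.32 ± 0.367 and NCAPG at 5.97 ± 0.350 FPKM, none of which overlapped with its neighbour. NCAPH averaged 51.5 CPM and 6.34 FPKM in CNTNAP2-203 OE, and NCAPG 60.7 CPM and 10.1 FPKM. The exons of NCAPH are nonetheless the shorter (3.278 against 4.921 kb), so its FPKM rests on another length. The place of NCAPH in the order depends on that length. The subunits of a complex are present in equal numbers in the protein. Their transcript levels differed several-fold, as for NCAPD2 and NCAPG of condensin I.

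Ratios of counts of related genes within a library do not depend on how libraries are scaled. Over 6 pairs, 3 against 3 libraries cannot give a two-sided exact permutation p below 0.1, so no pair could pass 0.05, and the adjusted p over the 6 pairs was 0.15 wherever the groups did not overlap. The ratio of SMC2 to SMC4 was 0.383, 0.443 and 0.373 in CNTNAP2-203 OE and 0.552, 0.520 and 0.590 in controls, a log2 difference of -0.47 (exact permutation p = 0.1). Every CNTNAP2-203 OE library lay below every control, replicate 3 included, and the log2 difference was -0.43 without replicate 3. The ratio of TOP2A to TOP2B was 5.04, 5.60 and 4.15 in CNTNAP2-203 OE and 3.95, 3.58 and 3.39 in controls, a log2 difference of 0.43 without overlap (exact permutation p = 0.1), and of 0.55 without replicate 3.

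Between the condensins, the ratio of NCAPG to NCAPG2 was 0.653, 0.658 and 0.838 in CNTNAP2-203 OE and 0.593, 0.527 and 0.553 in controls, a log2 difference of 0.35 towards condensin I (exact permutation p = 0.1). The ratio of NCAPD2 to NCAPD3 was 5.10, 5.26 and 5.52 in CNTNAP2-203 OE and 7.08, 6.04 and 5.81 in controls, a log2 difference of -0.25 towards condensin II (exact permutation p = 0.1). Without replicate 3 these log2 differences were 0.24 and -0.28, and without control replicate 1 that of NCAPD2 to NCAPD3 was -0.16. The libraries did not overlap in either pair, and the pairs moved in opposite directions, so these ratios show no common shift between the complexes. For the kleisins, the ratio of NCAPH to NCAPH2 was 0.736, 0.846 and 0.577 in CNTNAP2-203 OE and 0.640, 0.593 and 0.567 in controls, and the groups overlapped (log2 difference 0.25, exact permutation p = 0.3). Replicate 3 lay among the controls there. Without it the log2 difference was 0.40, and without CNTNAP2-203 OE replicate 2 it was 0.12. The ratio of MKI67 to TOP2A was 0.844, 0.862 and 0.205 in CNTNAP2-203 OE and 0.737, 0.904 and 0.750 in controls. It rested on replicate 3: the log2 difference was -0.58 with it (exact permutation p = 0.8) and 0.10 without it (exact permutation p = 0.6).

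**Figure D4:**
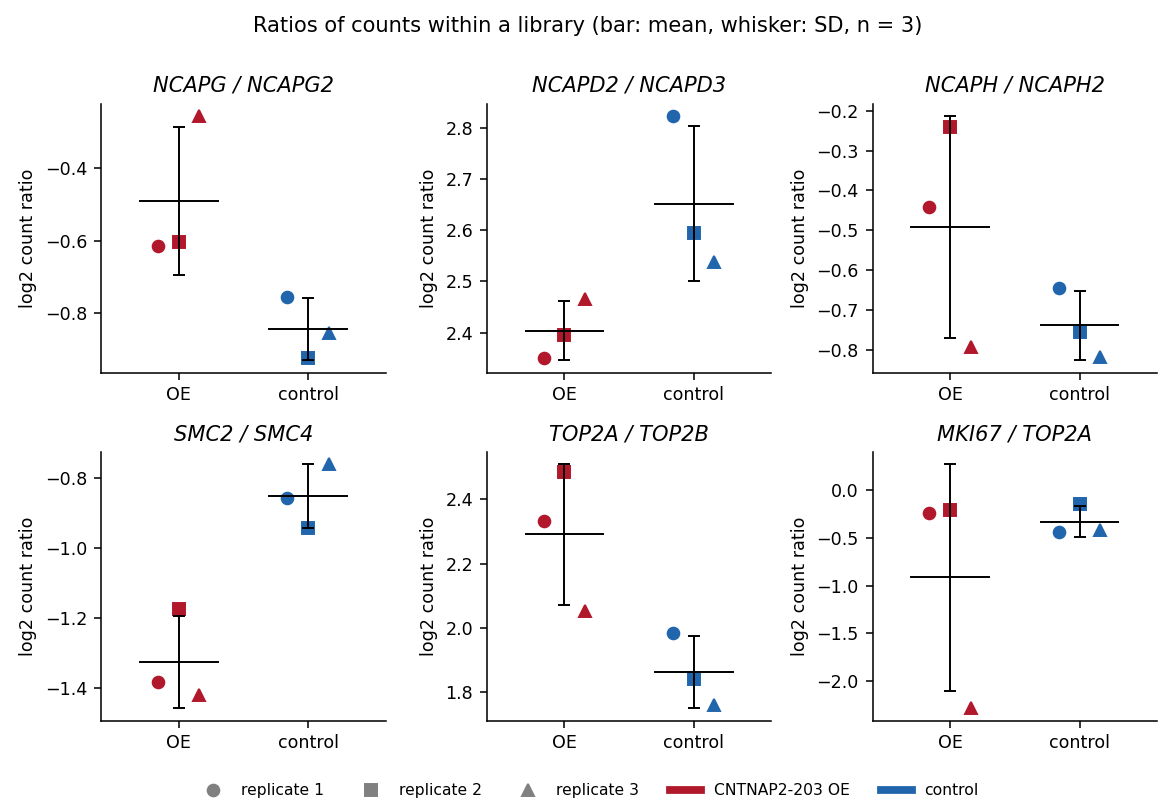
Log2 ratio of the counts of 2 genes within each library (vertical axes, each with its own range) for 6 pairs, in CNTNAP2-203 OE (left, red) and control (right, blue); symbols give the replicate number, the line the mean and the whisker the SD. The groups are separate for NCAPG / NCAPG2, NCAPD2 / NCAPD3, SMC2 / SMC4 and TOP2A / TOP2B, and overlap for NCAPH / NCAPH2 and MKI67 / TOP2A.

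Genes that act with condensin, by loading, phosphorylating or recruiting it, were described as a list of 16, which also holds the subunit NCAPH2. Of these, 3 were called higher by edgeR, where 0.798% of all tested genes were, and 0 lower. Of the 16 log2 fold changes 14 were positive, with a median of 0.37, and without NCAPH2 13 of 15 were positive, with a median of 0.32. The 3 were TTK, a spindle checkpoint kinase, and both parts of the main mitotic kinase, CDK1 and its cyclin CCNB1. TTK averaged 49.96 ± 2.45 CPM in CNTNAP2-203 OE and 31.2 ± 2.60 CPM in controls (log2 fold change 0.68, edgeR adjusted p = 0.0337). CDK1 averaged 101.5 ± 10.4 and 64.5 ± 5.73 CPM (log2 fold change 0.65, edgeR adjusted p = 0.0451), and CCNB1 202 ± 19.5 and 126 ± 12.1 CPM (log2 fold change 0.68, edgeR adjusted p = 0.0405). Each of the 3 was also called without replicate 3, with log2 fold changes of 0.70 for TTK (edgeR adjusted p = 0.0213), 0.57 for CDK1 (edgeR adjusted p = 0.0312) and 0.60 for CCNB1 (edgeR adjusted p = 0.0242). In that fit 5 of the 16 were called higher, where 1.72% of all genes were, and the median was 0.32 (0.39 without NCAPH2). DESeq2 called 7 of the 16, limma-voom 2 and limma-trend 2. Of all genes with an adjusted p, these tools called 4.40%, 0.516% and 0.527% higher. With the replicate number as a block edgeR called 0 of the 16. Leaving out any 1 of the other 5 libraries also gave 0 of 16 by edgeR.

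The list of 8 Ki-67 partners, proteins of the nucleolus, heterochromatin and chromosome surface, had 8 of 8 positive log2 fold changes with a median of 0.32. None passed the edgeR test, and 6 had an unadjusted p under 0.05, against 17.2% of all tested genes. DESeq2 called 4 of the 8, where it called 4.40% of the genes with an adjusted p higher. Limma-voom and limma-trend called 0. Without replicate 3 edgeR called 3 of them higher, where 1.72% of all genes were, and the median was 0.35. Other SMC proteins, those of cohesin, the SMC5-SMC6 complex and relatives, had 6 of 7 genes tested, 0 of them called by edgeR, DESeq2, limma-voom or limma-trend, 1 with an unadjusted p under 0.05, 4 positive log2 fold changes and a median of 0.06. That median was 0.17 without replicate 3, again with 0 called by edgeR. Other topoisomerases had 0 of 5 called by any of these tools, 0 with an unadjusted p under 0.05, 4 positive log2 fold changes and a median of 0.14, and a median of 0.11 without replicate 3.

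Other markers of cycling cells, the genes used beside Ki-67 for that purpose, formed a list of 12. Of these, 4 were called higher by edgeR, where 0.798% of all tested genes were, and 0 lower. All 12 log2 fold changes were positive, and the median was 0.62, where the median of all tested genes was -0.00. The replication clamp gene PCNA averaged 264 ± 41.0 CPM in CNTNAP2-203 OE and 129.8 ± 4.15 CPM in controls (log2 fold change 1.02, edgeR adjusted p = 0.0172). MCM6 and MCM2 encode subunits of the replicative helicase. MCM6 averaged 121 ± 4.01 and 67.2 ± 9.19 CPM (log2 fold change 0.85, edgeR adjusted p = 0.0246), and MCM2 159 ± 15.2 and 101 ± 6.27 CPM (log2 fold change 0.66, edgeR adjusted p = 0.0374). Without replicate 3 the log2 fold changes were 0.89 for PCNA (edgeR adjusted p = 0.00389), 0.84 for MCM6 (edgeR adjusted p = 0.0228) and 0.70 for MCM2 (edgeR adjusted p = 0.0192). CCNB1, given above, was the 4th. These 4 were called with CNTNAP2-203 OE replicate 3 in the fit, the library in which MKI67 was lowest, and without it 8 of the 12 were called higher, where 1.72% of all genes were, 11 of 12 log2 fold changes were positive, with AURKA, a mitotic kinase gene, at -0.13, and the median was 0.59. DESeq2 called 11 of the 12, limma-voom 4 and limma-trend 3, where they called 4.40%, 0.516% and 0.527% of the genes with an adjusted p higher. With the replicate number as a block edgeR called 0 of the 12. Leaving out CNTNAP2-203 OE replicate 2 gave 1 of 12 by edgeR, PCNA, and leaving out CNTNAP2-203 OE replicate 1 or any 1 control gave 0.

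**Figure D5:**
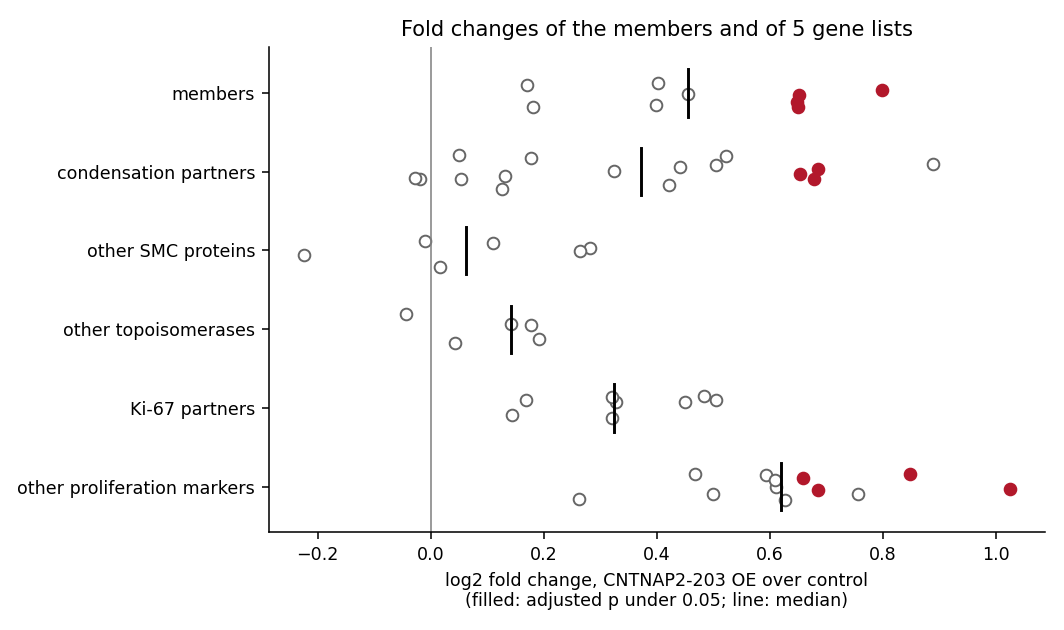
Log2 fold change, CNTNAP2-203 OE over control (horizontal axis), of the 9 genes (members) and of 5 gene lists, each point a gene; filled red points have an edgeR adjusted p under 0.05 and black lines give the medians. The medians run from 0.06 for other SMC proteins to 0.62 for other proliferation markers, with 0.46 for the 9 genes; CCNB1 and CDCA2 stand in 2 lists each.

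The mean profile of the 9 genes over the 6 libraries, centred on each gene's own mean log2 CPM, was 0.37, 0.40 and -0.11 in CNTNAP2-203 OE replicates 1, 2 and 3 and -0.20, -0.19 and -0.26 in controls. TOP2A and NCAPG2 lay closest to it among the 9, with root mean square differences of 0.0506 and 0.0528 on the log2 scale. MKI67 lay farthest at 0.751, with -1.78 in CNTNAP2-203 OE replicate 3, and the next was NCAPG at 0.248, with 0.40 in that library. The mean of -0.11 there includes this -1.78, while SMC4, NCAPD2, NCAPD3 and NCAPH were also positive, at 0.13, 0.09, 0.15 and 0.32. SMC2, NCAPG2 and TOP2A lay at -0.20, -0.01 and -0.12 in that library. Among 12469 other genes, the 5 with the most similar profile were ELAVL2 (0.0369), KNL1 (0.0415), FLRT2 (0.0444), KIF23 (0.0469) and CENPF (0.0505). KNL1 is a scaffold of the kinetochore, CENPF a kinetochore-associated protein and KIF23 a kinesin of the central spindle, while ELAVL2 is an RNA-binding protein and FLRT2 a membrane adhesion protein. None of the 5 passed the edgeR test, with log2 fold changes of 0.39 to 0.48 and adjusted p-values of 0.109 to 0.282. The likeness is over 6 libraries of 1 comparison and is a description. It includes the low mean of replicate 3, in which MKI67 was by far the lowest of the 9 genes. Over the 5 libraries without replicate 3, KIF23, FLRT2 and ELAVL2 were again among the 5 nearest, at 0.0157, 0.0177 and 0.0325, followed by NOV and TAF15, and KNL1 and CENPF came 16th and 37th. Among the 9 genes NCAPG2 was then the nearest to the mean profile at 0.0293, MKI67 lay at 0.108, and SMC2 lay farthest at 0.160.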

How the data were processed

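RNA sequencing was done on 6 libraries of CAL27 cells, 3 per group. Ribosomal RNA was removed and libraries made with TruSeq RNA v2, a kit without strand marking, per the labels' protocols. Reads were trimmed with Trim Galore 0.4.4 and the build was hg38, per the submitters' processing notes, with aligner, counter and annotation not given in the sources used here. Control replicate 1 lacks its reverse-read file, per the labels, and whether its counts used those reads is not stated. The authors deposited raw counts per gene, not normalized, and a second table of log2 values, which set against the counts fit log2(FPKM + 1): the implied gene length had a median coefficient of variation of 0.24% between libraries with an offset of 1 and of 3.28% with none.

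Counts were tested with edgeR 4.0.16 in R 4.3.3 (filterByExpr, minimum count 10, TMM, robust quasi-likelihood, no covariates), with Benjamini-Hochberg adjustment over 18786 genes and a threshold of 0.05. SEs are the absolute log2 fold change over the square root of F. The alternatives were DESeq2 1.42.0, limma 3.58.1 (voom on counts, trend on log2 values), other scalings, no filter, a replicate block, removal of a length trend, and leaving out each library. Coordinates are from GENCODE 29 (98.6% of tested genes matched). In simulated counts the edgeR test recovered, over 18295 genes, 3.08% of 1.5-fold changes, 49.3% of 2-fold changes and 81.2% of 4-fold changes, with 9.38% of calls false.

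The 9 genes and the lists were chosen with earlier results of these data known. Named genes are the 9, NCAPH2, TOP2B, CNTNAP2, each list member that passed, and the 5 nearest profiles.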

Additional observations from a re-analysis of the deposited data

How the results depend on the processing

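The log2 fold change stayed positive for 8 of the 9 genes in each of the 15 alternatives. That of MKI67 was -0.19 by limma-voom, -0.18 by limma-trend, -0.16 with the replicate block, -0.09 without CNTNAP2-203 OE replicate 1 and -0.18 without CNTNAP2-203 OE replicate 2, none past the threshold, and with CNTNAP2-203 OE replicate 3 left out it was 0.63. The number of the 9 called higher was 4 with other edgeR scalings or no filter, 6 by DESeq2 or with the length trend removed, 2 by limma-voom and 1 by limma-trend. Leaving out 1 library gave 0 to 8, and 8 were called without both the length trend and CNTNAP2-203 OE replicate 3, an alternative chosen after seeing the data. With the replicate block 0 of 9 were called, and 17 genes were called over the whole table. In that fit 7 of the 9 had an unadjusted p under 0.05, as had 2644 of all 18786 tested genes in either direction. Deviations of same-numbered libraries correlated at -0.08, 0.05 and -0.03, and those of differently numbered ones at -0.08 to 0.11. Values this near 0 do not settle whether same-numbered libraries were handled together, and the main test took them as unpaired. Over the whole table, 262 genes were called in either direction in the main comparison. With the other edgeR scalings 248 and 231 were called, and with no filter, where more genes were tested, 354. The number was 1125 by DESeq2, 166 by limma-voom and 186 by limma-trend. It was 495 with the length trend removed, 650 when CNTNAP2-203 OE replicate 3 was also left out, and 13 to 560 when only 1 library was left out. The log2 difference of the ratio of MKI67 to TOP2A was -0.58 over all libraries and ran from -0.93 to 0.10 when 1 was left out. The causes of these shifts were not tested. In simulated counts few 1.5-fold changes were recovered, so a gene not called is not shown to be unchanged. The changed genes there were drawn from all tested genes, and the share at the levels of the 9 genes was not worked out.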
